A study of Mus musculus with 100 samples.

Results

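The 8 loci (of 18524 genes named in the tables) that encode the PGC1 coactivators and regulators of mitochondrial biogenesis were followed across chromatin immunoprecipitation sequencing (ChIP-seq) of mouse macrophages. They were Ppargc1b, Ppargc1a, Pprc1, Esrra, Nrf1, Gabpa, Tfam and Sirt1, and they were taken by gene name, with earlier results of these data known. Every genomic region whose nearest gene in the deposited annotation was one of the 8 was taken from all 15 count tables, which gave 157 of 610301 regions. Regions of 1 gene whose centres lay within 500 bp of each other in different tables were joined into 35 sites, each named by its listed distance to the transcription start. A listed nearest gene is an assignment by position and was not tested as a target.

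PGC1α, PGC1β and PRC, encoded by Ppargc1a, Ppargc1b and Pprc1, are coactivators that do not bind DNA themselves and are recruited by nuclear receptors and by nuclear respiratory factors. ERRα, encoded by Esrra, is the orphan nuclear receptor through which PGC1 proteins raise genes of oxidative phosphorylation. Nrf1 (nuclear respiratory factor 1) and Gabpa (the DNA-binding subunit of the respiratory factor GABP) drive nuclear genes of the respiratory chain and of mitochondrial transcription, among them Tfam, which encodes the factor that packages and transcribes mitochondrial DNA. Sirt1 encodes an NAD-dependent deacetylase known to deacetylate PGC1α and the NFκB subunit p65. In this study PGC1β was itself immunoprecipitated, so its locus appears both as the source of the protein and as a place where it can bind.

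Bone marrow-derived macrophages (BMDMs) came from C57BL/6 mice of 8 to 12 weeks and were given vehicle (Veh) or Kdo2 lipid A (KLA), a TLR4 agonist. In wild-type cells the ChIP-seq targets were the corepressor NCoR, the histone deacetylase HDAC3, PGC1β, the kinase ERK1, the histone acetyltransferase p300, p65 of the NFκB family, the AP-1 factor Fosl2 and the myeloid lineage factor PU.1. An ERK inhibitor (ERKi) was combined with KLA for NCoR and, in cells carrying the solvent DMSO, for PGC1β, and ERK1 and p300 were also profiled in wild-type bone marrow cells on day 0 and day 4 of osteoclast differentiation. The histone acetylation H3K27ac, found at promoters and enhancers in use, was profiled with Veh and KLA in 3 further experiments. The first held NCoR flox/flox cells, called WT there, and NCoR flox/flox cells with LysMCre, called NKO. The next held PGC1b flox/flox cells with or without LysMCre, a Cre expressed from a myeloid promoter. The last held wild-type cells with DMSO, and wild-type cells with KLA and RGFP966, an inhibitor of HDAC3. Control and deleted cells of both knockout experiments therefore carry floxed alleles. Where a time was given with Veh or KLA it was 6 h, except that p300 with Veh was labelled 0 h. Each p300 difference with KLA is therefore 6 h against 0 h. Every group held 2 libraries. They are described as biological replicates with no word on separate animals, so p-values measure only the spread between these libraries.

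The 70 libraries held 4.30 to 21.5 M tags, of which 2.79% to 52.8% fell in listed regions, and levels below are tags per 10 M of each library's total. The test of each difference was the quasi-likelihood F-test of edgeR over all regions of a table, and a region was called where the Benjamini-Hochberg adjusted p was under 0.05 and the change over 2-fold. Fold changes are log2 values ± SE with 2 libraries against 2. With so few libraries, groups can lie apart without a real difference. Factor regions were peaks merged over the conditions of a table, so a region can be listed only through the group where it is high. The p-values do not account for this selection. The share of all regions whose groups were apart is not given, so apart is a description only. Scaling by the trimmed mean of M-values (TMM) in place of totals moved the median difference over all regions by over 0.1 (log2) in 22 of 25 comparisons, by -1.61 (p300, day 4) to 1.16 (NCoR, ERKi), so calls that TMM ended are named. Fosl2 with KLA replicate 1, the smallest library, lay below replicate 2 at 8 of 8 member regions, and HDAC3 with KLA replicate 2 lay above replicate 1 at 14 of 15. H3K27ac at the Ncor1 start was 51.7 and 44.8 (WT, Veh) against 58.3 and 70.2 (NKO, Veh), and since the position of the deleted exons was not given in the sources used here, it is no check of the deletion. The 5 macrophage markers Adgre1, Csf1r, Cd68, Itgam and Spi1 had a promoter region for H3K27ac in both the RGFP966 and the PGC1b experiment and for p300 on days 0 and 4, 3 had one in the WT and NKO table, and 0 of 6 markers of other cells had one in these 4 tables.

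The loci differed widely in how many regions were listed. Nrf1 had 51 regions in 10 sites, Sirt1 35 in 9 and Ppargc1b 24 in 5, while Pprc1 had 15 in 2, Esrra 14 in 3, Tfam 12 in 2, Ppargc1a 5 in 3 and Gabpa 1. Of the 157 regions, 87 lay within 2000 bp of a start. Only 6 of the 51 Nrf1 regions did, against 22 of 24 for Ppargc1b and all 15 for Pprc1.

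Sequences of 200 bp around the centres of the distal Nrf1 and Sirt1 sites listed in most tables are shown here so that they can be read beside the values (mm10, reference strand, 5′ to 3′). Of 7 short words searched on both strands, capitals mark those found: GAGGAAGT, a core bound by PU.1, at the first 2 Nrf1 sites and TGANTCA, the AP-1 core, at the other 2. In 65999 windows of the same length under p300 peaks, 10.2% held GAGGAAGT and 23.1% held TGANTCA. The Sirt1 intronic site held none of the 7 words.
Nrf1 upstream site (-12.7 kb), chr6:30035173-30035372: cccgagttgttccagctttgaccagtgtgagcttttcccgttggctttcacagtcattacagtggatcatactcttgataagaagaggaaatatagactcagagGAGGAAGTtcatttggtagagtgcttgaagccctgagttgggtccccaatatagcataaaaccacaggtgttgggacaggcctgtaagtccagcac
Nrf1 intronic site (5.3 kb), chr6:30053220-30053419: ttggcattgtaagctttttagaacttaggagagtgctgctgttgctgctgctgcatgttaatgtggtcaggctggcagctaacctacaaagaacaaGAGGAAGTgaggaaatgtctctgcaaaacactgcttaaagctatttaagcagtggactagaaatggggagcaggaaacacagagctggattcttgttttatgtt
Nrf1 intronic site (20.6 kb), chr6:30107635-30107834: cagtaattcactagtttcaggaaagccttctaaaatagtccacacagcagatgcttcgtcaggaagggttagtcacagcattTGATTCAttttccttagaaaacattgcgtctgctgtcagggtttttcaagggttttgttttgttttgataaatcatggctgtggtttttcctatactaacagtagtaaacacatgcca
Nrf1 intronic site (27.1 kb), chr6:30114206-30114405: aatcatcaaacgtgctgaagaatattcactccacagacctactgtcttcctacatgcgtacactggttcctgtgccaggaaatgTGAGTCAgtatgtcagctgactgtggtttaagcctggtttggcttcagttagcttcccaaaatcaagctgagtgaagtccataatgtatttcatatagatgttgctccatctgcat
Sirt1 intronic site (11.7 kb), chr10:63327196-63327395: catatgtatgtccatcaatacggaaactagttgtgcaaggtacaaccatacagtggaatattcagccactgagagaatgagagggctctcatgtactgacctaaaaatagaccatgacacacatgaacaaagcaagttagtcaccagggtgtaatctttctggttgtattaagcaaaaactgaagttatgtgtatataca

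The Tfam start is shown because it carries a binding word of another member, GABP (the word of ETS factors). The 150 bases that precede the RefSeq start of Tfam (mm10, minus strand) held the ETS word CCGGAAGT, in capitals, 47 bases before the start, and 3.89% of 32851 RefSeq promoters of 300 bases held this word. The Tfam site 1.7 kb upstream held the same word on the minus strand, which reads ACTTCCGG on the strand shown, and the NFκB word GGGANTTCC. Among p300 windows 1.25% held the ETS word and 2.42% the NFκB word. The Gabpa promoter held GAGGAAGT 113 bases before its start, a word found in 3.20% of promoters. No other promoter of a member that was read held any of the 7 words, which also covered GCGCATGCG for NRF1, TCAAGGTCA for ERR and TGACGTCA for CREB.
Tfam promoter, chr10:71238045-71238194: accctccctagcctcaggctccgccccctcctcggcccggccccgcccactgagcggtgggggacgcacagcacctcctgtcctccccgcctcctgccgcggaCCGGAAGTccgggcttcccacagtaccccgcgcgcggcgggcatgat
Tfam upstream site (-1.7 kb), chr10:71239692-71239891: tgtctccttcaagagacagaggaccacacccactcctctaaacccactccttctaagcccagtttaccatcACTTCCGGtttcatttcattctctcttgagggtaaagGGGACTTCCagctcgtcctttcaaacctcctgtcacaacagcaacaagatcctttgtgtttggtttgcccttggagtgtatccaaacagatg

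Across the 9 comparisons of KLA with Veh for factors, 29 of 109 member regions (26.6%) were called, 20 higher and 9 lower, beside 152682 of 433227 regions (35.2%) in the same tables. By target, 4 of 11 member regions were called for NCoR, where 40.1% of all regions were called, and 6 of 15 for HDAC3 (38.8% of all). For PGC1β 3 of 13 were called in the experiment without solvent (22.8% of all) and 1 of 17 in DMSO (17.6% of all). For p300 5 of 14 were called (54.9% of all), for p65 7 of 15 (62.4%), for Fosl2 2 of 8 (15.6%) and for PU.1 1 of 9 (26.3%). For ERK1 0 of 7 were called, with 0 at an unadjusted p under 0.05 and 0 by DESeq2, beside 12.9% of all regions.

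Except for Fosl2, where 2 member regions made up a larger share, these shares were near or below those of all regions. Of 191 tests of member regions that gave no call, 43 had the other sign under TMM, so the sign of an uncalled difference depends on the scaling. Under TMM the split of member calls turned for p65, from 6 higher and 1 lower to 0 higher and 4 lower, and for p300, from 3 higher and 2 lower to 3 higher and 6 lower. Of all 43 member calls in the 25 comparisons, 25 kept their call under TMM and 7 kept it without each library in turn. The map of KLA differences shows that the called increases lay mostly at Sirt1 and the called decreases mostly at Nrf1 and Ppargc1b.

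**Figure D1:**
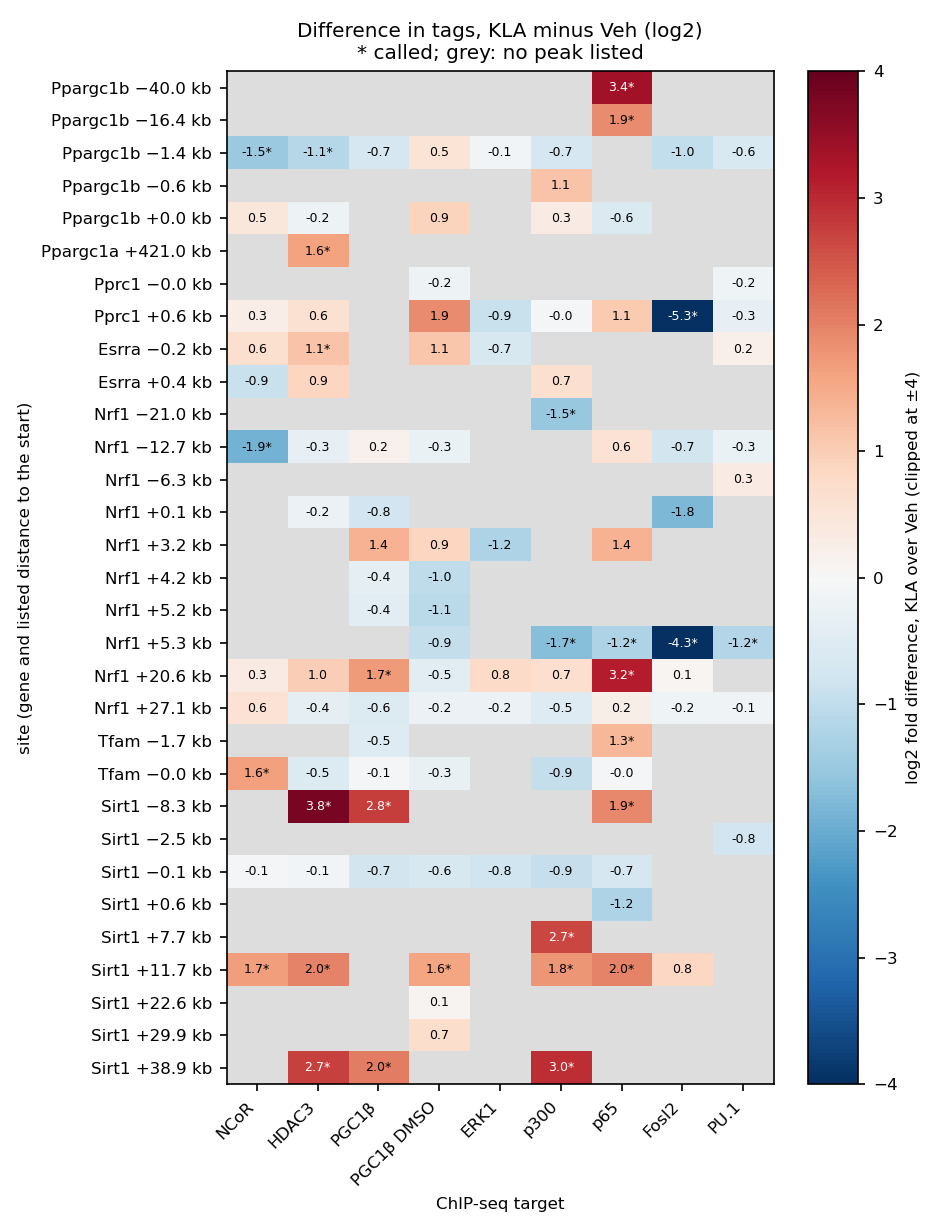
Log2 fold difference in tags between KLA and Veh (colour, clipped at 4 in either direction) for every member site where a factor was tested (rows, by gene and listed distance to the start) and each of the 9 factor comparisons (columns), with asterisks on called regions and grey where no peak was listed. Increases cluster in the Sirt1 rows, and the NCoR column has decreases at Ppargc1b and Nrf1.

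Ppargc1b, the coactivator gene itself, was marked by a site 1.4 kb upstream of its start (chr18:61401401-61402401) that was listed in 13 of the 15 tables, the most of any member site. NCoR there was 83.6 and 134 with Veh and 40.5 and 36.7 with KLA. HDAC3, the deacetylase that NCoR activates, was 123 and 127 with Veh and 40.4 and 77.3 with KLA. Both groups were apart for both proteins, and both fell: NCoR by a log2 fold change of -1.50 ± 0.31 (adjusted p = 0.00333) and HDAC3 by -1.15 ± 0.38 (adjusted p = 0.00782), calls that TMM kept. The NCoR call was lost without KLA replicate 2 (-1.42, adjusted p = 0.0626). The HDAC3 call was lost without Veh replicate 1 (-1.14, adjusted p = 0.316), Veh replicate 2 (-1.10, adjusted p = 0.343) or KLA replicate 1 (-0.69, adjusted p = 0.0123).

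PGC1β bound at the same upstream site of its own gene. It measured 43.5 and 37.7 with Veh and 35.0 and 17.7 with KLA in cells without solvent (-0.68 ± 0.40, adjusted p = 0.239), and 47.1 and 52.5 with Veh and 96.7 and 49.1 with KLA in DMSO (0.54 ± 0.43, adjusted p = 0.426). The differences had opposite signs in the separate experiments, and neither was called. PU.1 was 107 and 109 with Veh and 72.0 and 68.2 with KLA, a difference of -0.62 ± 0.14 (adjusted p = 6.87e-05) that stayed under the 2-fold limit and was -0.21 with TMM. For p300 the levels were 73.3 and 57.2 with Veh and 40.4 and 42.2 with KLA (-0.66 ± 0.26, adjusted p = 0.0348), under the limit with totals and called lower with TMM (-1.18). ERK1 (14.2 and 38.2 with Veh, 13.5 and 36.7 with KLA) and Fosl2 (81.8 and 35.7 with Veh, 6.98 and 49.1 with KLA) overlapped between groups.

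Adding ERKi to KLA left NCoR at 16.9 and 26.7 at this site, lower than both KLA libraries but not called (-0.82 ± 0.39, adjusted p = 0.0868, and 0.35 with TMM). In differentiating bone marrow cells p300 there rose from 11.4 and 12.8 on day 0 to 54.8 and 29.5 on day 4 (1.81 ± 0.61, adjusted p = 0.0217), a call lost with TMM (0.20) and without day 4 replicate 1 (1.28, adjusted p = 0.519) or replicate 2 (2.18, adjusted p = 0.124). H3K27ac at the site was low, at 1.94 and 1.68 with DMSO and KLA against 6.58 and 12.9 with RGFP966, and rose by 2.35 ± 0.84 (adjusted p = 0.00975). That call was lost without DMSO and KLA replicate 1 (2.46, adjusted p = 0.057).

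At the Ppargc1b start, named here after its values were seen and shared with the overlapping gene Gm52354, no factor was called with KLA. NCoR was 25.1 and 9.42 with Veh and 27.5 and 20.1 with KLA, and HDAC3 was 23.3 and 30.4 against 25.2 and 21.1, so the groups overlapped. PGC1β in DMSO was 9.75 and 11.7 with Veh and 23.7 and 16.4 with KLA, apart and not called (0.90 ± 0.78, adjusted p = 0.474). H3K27ac at the start was 51.6 and 49.9 in PGC1b flox/flox cells with Veh and 25.1 and 25.4 with KLA, a fall of -1.0 ± 0.28 (adjusted p = 0.000974) at the edge of the 2-fold limit. This call was lost with TMM (-0.58), without Veh replicate 1 (-0.98, adjusted p = 0.0118) and without KLA replicate 1 (-1.0, adjusted p = 0.00953). In DMSO cells the same window held 23.3 and 27.9 with Veh and 39.5 and 21 with KLA, overlapping (0.27 ± 0.33, adjusted p = 0.516).

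Distal Ppargc1b peaks, at -16.4 and -40.0 kb, were listed for p65 alone. At -16.4 kb p65 was 0.875 and 8.39 with Veh and 12.0 and 21.9 with KLA (1.88 ± 0.76, adjusted p = 0.0487, and 0.67 with TMM). That call was lost without Veh replicate 1 (1.00, adjusted p = 0.119), KLA replicate 1 (2.23, adjusted p = 0.241) or KLA replicate 2 (1.37, adjusted p = 0.547). At -40.0 kb p65 had 3 tags in both Veh libraries together and 44 with KLA, so this region may be listed only through its KLA peak. The ratio was 11.0 per library total, with a 95% interval of 3.52 to 55.3 that covers counting error only. The fitted call there was lost with TMM (2.19) and without either KLA library (adjusted p = 0.257 and 0.173).

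**Figure D2:**
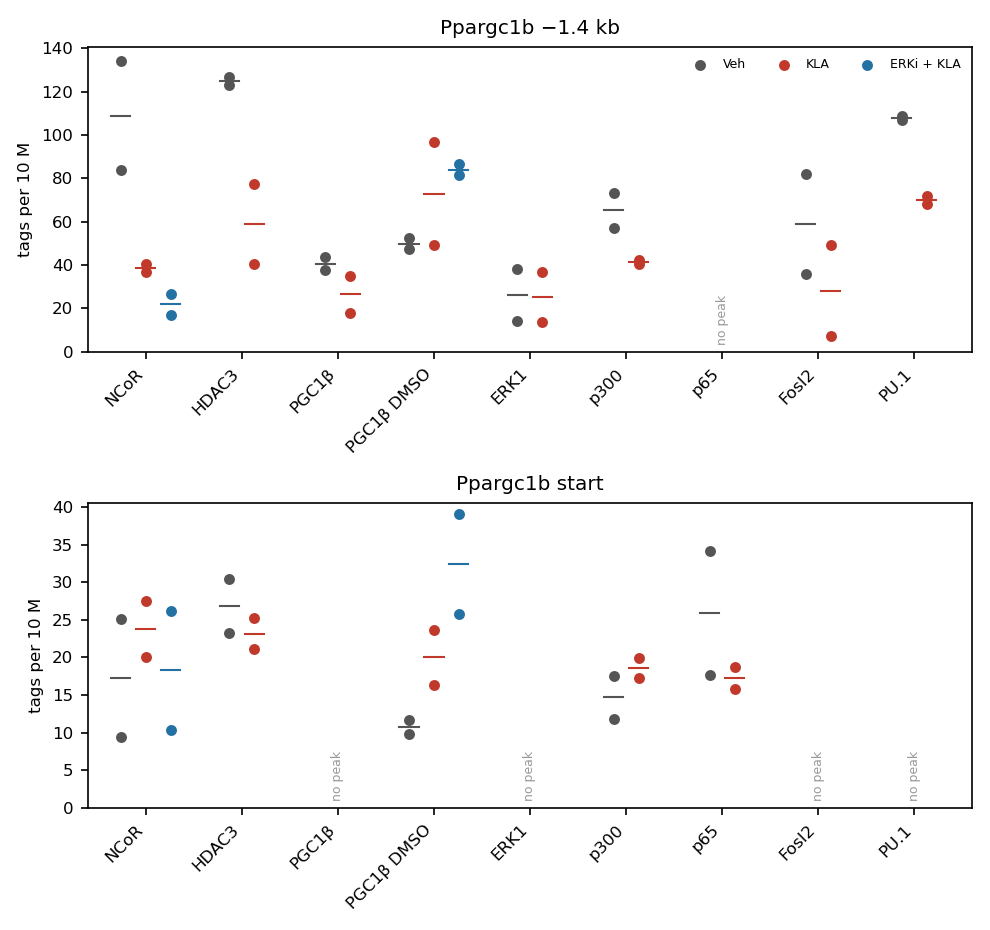
Tags per 10 M (vertical axes, from 0) in every library at the Ppargc1b sites, points coloured by treatment and grouped by ChIP-seq target, with bars at group means. At the site 1.4 kb upstream the NCoR and HDAC3 points with KLA lie below those with Veh, while at the start they overlap.

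Ppargc1a, the gene of PGC1α, had no peak near its start for any factor in these macrophages. Its H3K27ac windows 1.3 and 1.8 kb inside the listed start held 0 to 17.6 tags per 10 M in all. They lie 563.2 and 563.7 kb into the gene from its outermost start. At 1.3 kb (chr5:51552169-51553169) the levels were 8.31 and 7.85 with DMSO and Veh, 4.53 and 3.37 with DMSO and KLA, and 11.8 and 17.6 with RGFP966 and KLA. The RGFP966 libraries were the highest, and the rise over DMSO and KLA was 1.85 ± 0.61 (adjusted p = 0.00538), kept with TMM (1.54) and lost without RGFP966 replicate 2 (1.54, adjusted p = 0.0943). The only factor peak listed for Ppargc1a was an intergenic HDAC3 peak 421 kb past the listed start (chr5:51132820-51133083) and 982.9 kb past the outermost start. This peak was 12.4 and 5.53 with Veh and 20.5 and 35.1 with KLA. It rose by 1.60 ± 0.65 (adjusted p = 0.0356), a call lost without Veh replicate 1 (2.25, adjusted p = 0.0762), Veh replicate 2 (1.11, adjusted p = 0.453) or KLA replicate 2 (1.23, adjusted p = 0.122).

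Pprc1, the third PGC1 gene, was bound by most factors at a site 0.6 kb inside the gene, and of the factors there only Fosl2 was called with KLA. NCoR was 59.7 and 47.1 with Veh and 68.8 and 58.8 with KLA (0.25 ± 0.30, adjusted p = 0.516), and PU.1 was 67.7 and 69.1 against 49.7 and 59.3 (-0.33 ± 0.18, adjusted p = 0.09), with 0.09 under TMM. HDAC3 was 32.7 and 44.8 with Veh and 52.7 and 68.5 with KLA (0.62 ± 0.42, adjusted p = 0.24). PGC1β in DMSO was 14.6 and 1.46 with Veh and 35.5 and 29.8 with KLA (1.89 ± 0.94, adjusted p = 0.171), and p65 was 28.0 and 19.6 against 33.4 and 65.7 (1.05 ± 0.45, adjusted p = 0.0567). ERK1 was lower with KLA, at 28.3 and 34.7 with Veh and 25.8 and 8.17 with KLA. The groups of HDAC3, PGC1β, p65, PU.1 and ERK1 did not overlap, and none of these differences was called. Fosl2 had 60 tags in the Veh libraries and 1 in the KLA libraries, a ratio of 46.4 (95% interval 8.01 to 1862, counting error only), and its fitted call was lost without Veh replicate 1 (adjusted p = 0.587) or replicate 2 (adjusted p = 0.937). Fosl2 was 28.2 and 41.9 with Veh and 0 and 1.17 with KLA in the single libraries.

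H3K27ac at the Pprc1 start lay higher with KLA in WT, NKO and DMSO cells, overlapped in both PGC1b genotypes, and fell with the HDAC3 inhibitor. The WT libraries held 23.3 and 18.3 (Veh) against 42.1 and 36.5 (KLA). The NKO libraries held 21.4 and 18.0 (Veh) against 58.4 and 30.6 (KLA). The KLA groups lay above the Veh groups in both genotypes, with a call in NKO (1.20 ± 0.36, adjusted p = 0.0165) and none in WT (0.92 ± 0.35, adjusted p = 0.0691). The difference between these responses was 0.27 ± 0.50 (adjusted p = 0.858), and the NKO call was lost without Veh replicate 1 (1.32, adjusted p = 0.051), Veh replicate 2 (1.07, adjusted p = 0.109) or KLA replicate 1 (0.64, adjusted p = 0.401). In wild-type cells it was 133 and 147 with DMSO and Veh, 257 and 200.3 with DMSO and KLA (0.71 ± 0.21, adjusted p = 0.00241, under the limit and 1.14 with TMM) and 118 and 92.1 with RGFP966 and KLA. The RGFP966 libraries lay below both other groups, and the fall from DMSO and KLA was -1.13 ± 0.22 (adjusted p = 1.11e-06). That call was kept with TMM (-1.47), and without DMSO and KLA replicate 1 (-0.93, adjusted p = 0.000135) or RGFP966 replicate 2 (-0.96, adjusted p = 0.00118) it dropped under the 2-fold limit.

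Esrra, the receptor partner of the PGC1 proteins, carried strong PU.1 signal at its start (chr19:6921901-6922111), at 177 and 168 with Veh and 201 and 196 with KLA (0.20 ± 0.10, adjusted p = 0.0584), a difference of 0.62 with TMM. HDAC3 was 42.2 and 39.8 with Veh and 65.6 and 119 with KLA and rose by 1.14 ± 0.40 (adjusted p = 0.0125). The call was lost with TMM (0.82), without Veh replicate 1 (1.19, adjusted p = 0.344) or replicate 2 (1.11, adjusted p = 0.393), and without KLA replicate 2 (0.68, adjusted p = 0.0154). NCoR was 32.3 and 36.5 with Veh and 61.6 and 45.7 with KLA, apart but not called (0.64 ± 0.35, adjusted p = 0.161). PGC1β in DMSO was 24.4 and 27.7 with Veh and 75.0 and 37.2 with KLA, also apart and not called (1.09 ± 0.51, adjusted p = 0.146). With ERKi added to KLA, PGC1β was 57.9 and 78.9, which overlapped the KLA libraries (0.31 ± 0.49, adjusted p = 0.815). At a second Esrra site 0.4 kb inside the gene NCoR (39.4 and 30.6 with Veh, 21.9 and 15.9 with KLA) and HDAC3 (21.1 and 17.7 with Veh, 31.6 and 40.4 with KLA) differed in opposite directions, neither called (adjusted p = 0.119 and 0.173).

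Nrf1, the respiratory factor gene, had most of its regions at distal sites. The decrease of lowest p was at 5.3 kb, in an intron of the gene, with the PU.1 word in the sequence shown above. PU.1 there was 189.8 and 212 with Veh and 92.2 and 84.1 with KLA, groups apart by far more than their spread, and fell by -1.18 ± 0.11 (adjusted p = 7.4e-18), with -0.77 under TMM, which ended the call. The acetyltransferase p300 was 33.2 and 36.1 with Veh and 10.7 and 10.3 with KLA (-1.72 ± 0.41, adjusted p = 0.00171), kept with TMM (-2.24). The NFκB subunit p65 also fell, from 36.8 and 29.8 to 14.0 and 14.4 (-1.23 ± 0.46, adjusted p = 0.0353). Its call was kept with TMM (-2.45) and lost without KLA replicate 1 (-1.21, adjusted p = 0.22) or replicate 2 (-1.24, adjusted p = 0.209). Fosl2 had 53 tags with Veh and 2 with KLA, a ratio of 20.5 (95% interval 5.40 to 174, counting error only), with the fitted call lost without either Veh library (adjusted p = 0.908 and 0.952). PGC1β in DMSO was 38.2 and 49.5 with Veh and 27.6 and 17.9 with KLA, lower but not called (-0.95 ± 0.64, adjusted p = 0.334).

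At the intergenic Nrf1 site 12.7 kb upstream, also with a PU.1 word, NCoR alone was called. It was 62.1 and 101 with Veh, 20.2 and 23.5 with KLA, and 10.1 and 5.17 with ERKi and KLA, so the 3 groups did not overlap. NCoR fell by -1.89 ± 0.37 with KLA (adjusted p = 0.0022), a call kept with TMM (-1.89) and without each library in turn. With ERKi it fell further by -1.50 ± 0.52 (adjusted p = 0.0264), a call lost with TMM (-0.35) and without KLA replicate 1 (-1.60, adjusted p = 0.0864), KLA replicate 2 (-1.39, adjusted p = 0.137) or ERKi replicate 2 (-1.10, adjusted p = 0.126). PU.1 (49.1 and 66.6 with Veh, 44.5 and 50.3 with KLA) and HDAC3 (63.3 and 59.2 with Veh, 27 and 77.3 with KLA) overlapped between groups. The p300 peak 21 kb upstream fell from 13.8 and 10.5 to 3.58 and 4.86 (-1.52 ± 0.56, adjusted p = 0.0265), lost without Veh replicate 1 (-1.31, adjusted p = 0.119), KLA replicate 1 (-1.31, adjusted p = 0.315) or KLA replicate 2 (-1.74, adjusted p = 0.213).

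The Nrf1 sites listed at 20.6 and 27.1 kb, which lie 59.8 and 66.3 kb into the gene from its outermost start, both held an AP-1 word and had Fosl2 peaks. At 20.6 kb PGC1β was 13.5 and 6.51 with Veh and 40.4 and 25.2 with KLA, apart, and rose by 1.70 ± 0.50 (adjusted p = 0.0176). This call was kept with TMM (1.57) and lost without Veh replicate 2 (1.25, adjusted p = 0.279), and in the DMSO experiment PGC1β at this site was 24.4 and 43.7 with Veh and 29.6 and 19.4 with KLA, not called (-0.46 ± 0.63, adjusted p = 0.669). The subunit p65 rose there from 5.25 and 0 to 15.4 and 34.2 (3.16 ± 0.88, adjusted p = 0.00846), lost with TMM (1.92) and without KLA replicate 1 (3.63, adjusted p = 0.075) or replicate 2 (2.49, adjusted p = 0.316). HDAC3 was 43.6 and 33.2 with Veh and 55.7 and 100.1 with KLA (0.98 ± 0.41, adjusted p = 0.0401), just under the 2-fold limit. Fosl2 itself did not separate at 20.6 kb (62.1 and 38.8 with Veh, 34.9 and 69.0 with KLA) or at 27.1 kb (142 and 98.6 with Veh, 69.8 and 144 with KLA). At 27.1 kb, the Nrf1 site found in the most tables (11), no region was called, although p300 was lower with KLA (113 and 112 against 90.0 and 68.1, -0.51 ± 0.20, adjusted p = 0.0362, called lower only with TMM at -1.03).

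**Figure D3:**
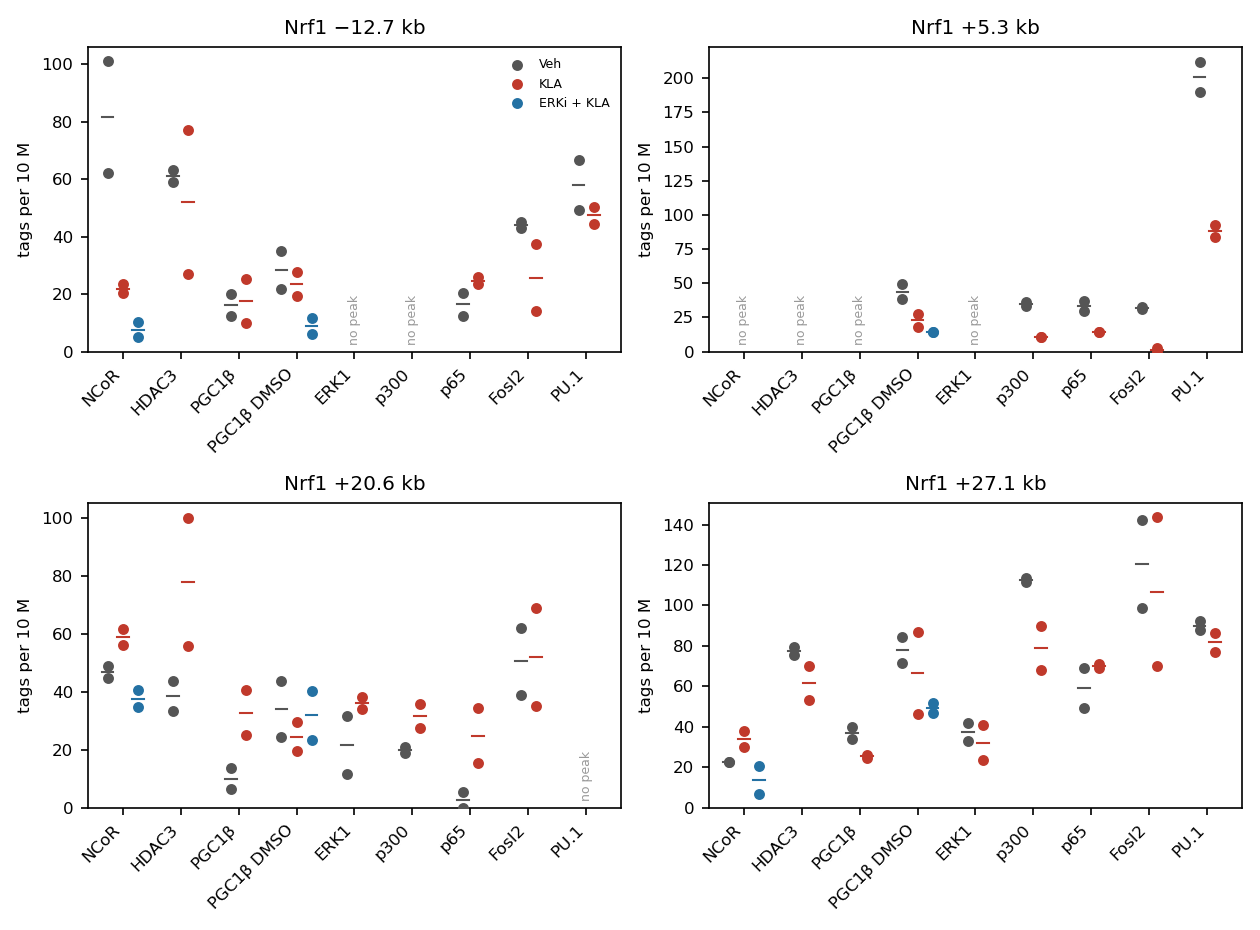
Tags per 10 M (vertical axes, from 0) in every library at the 4 distal Nrf1 sites listed in most tables, points coloured by treatment and grouped by ChIP-seq target, with bars at group means. PU.1 and p300 points with KLA lie below those with Veh at 5.3 kb, NCoR falls in steps from Veh to KLA to ERKi at -12.7 kb, and at 20.6 kb PGC1β points with KLA lie above those with Veh in the experiment without DMSO, not in the one with it.

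The Nrf1 start had the highest H3K27ac among the member windows of the RGFP966 and PGC1b experiments. In the former it was 341 and 368 with DMSO and Veh, 423 and 291 with DMSO and KLA, and 173 and 142 with RGFP966 and KLA. The KLA and Veh groups overlapped (0.01 ± 0.19, adjusted p = 0.958), while the RGFP966 libraries were lowest and fell by -1.19 ± 0.20 (adjusted p = 3.92e-08), also with TMM (-1.53). Without DMSO and KLA replicate 1 the fall was -0.89 (adjusted p = 8.23e-05), under the 2-fold limit. Gabpa, the other respiratory factor, was listed once, as an H3K27ac region at a start it shares with Atp5j, a subunit gene of mitochondrial ATP synthase (chr16:84835236-84835456). In WT it measured 91.4 and 96.3 (Veh) against 75.5 and 85.5 (KLA). The NKO libraries gave 92.9 and 95.2 (Veh) against 79.6 and 76.4 (KLA). The KLA libraries were lower in both genotypes by little and without a call (-0.22 ± 0.20 in WT, adjusted p = 0.496, and -0.27 ± 0.20 in NKO, adjusted p = 0.404).

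Tfam, a target gene of the respiratory factors, had peaks of NCoR, HDAC3, p300, p65 and PGC1β at its start, over the ETS word shown above, and H3K27ac regions in all 3 experiments. NCoR was 3.58 and 22.4 with Veh, 34.0 and 47.7 with KLA, and 11.8 and 11.2 with ERKi and KLA. It rose with KLA by 1.65 ± 0.62 (adjusted p = 0.0483) and fell with ERKi by -1.82 ± 0.62 (adjusted p = 0.0249). The KLA libraries lay above both other groups, but the rise was lost without Veh replicate 1 (0.88, adjusted p = 0.0795), KLA replicate 1 (1.87, adjusted p = 0.131) or KLA replicate 2 (1.38, adjusted p = 0.343). The fall was lost with TMM (-0.66) and without KLA replicate 1 (-2.04, adjusted p = 0.0923), KLA replicate 2 (-1.55, adjusted p = 0.211), ERKi replicate 1 (-1.86, adjusted p = 0.0681) or ERKi replicate 2 (-1.78, adjusted p = 0.0782).

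PGC1β at the Tfam start was 9.40 and 15.3 with Veh and 12.0 and 12.0 with KLA, which overlapped (-0.05 ± 0.55, adjusted p = 0.957). HDAC3 was 52.4 and 42.6 with Veh and 28.1 and 38.6 with KLA, in the opposite direction to NCoR and not called (-0.54 ± 0.44, adjusted p = 0.342). For p300 the levels were 27 and 34.2 with Veh and 14.8 and 16.8 with KLA (-0.95 ± 0.40, adjusted p = 0.0451), under the limit with totals and called lower with TMM (-1.47). At the site 1.7 kb upstream, which holds the NFκB word, p65 rose from 7.88 and 12.1 to 27.4 and 23.3 (1.34 ± 0.53, adjusted p = 0.0431). That call was lost with TMM (0.13) and without Veh replicate 1 (1.06, adjusted p = 0.0574), KLA replicate 1 (1.21, adjusted p = 0.353) or KLA replicate 2 (1.45, adjusted p = 0.244).

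Sirt1, the deacetylase gene, had the most called increases with KLA, of which some lay in the neighbouring gene Herc4. This count was not set beside a share of all regions. At an intronic site 11.7 kb past the start 5 ChIP-seq targets rose, and TMM kept the calls of NCoR, HDAC3 and p300 only. NCoR there was 14.3 and 21.2 with Veh and 71.3 and 42.9 with KLA, and HDAC3 was 18.9 and 16 with Veh and 65.1 and 73.8 with KLA. The acetyltransferase p300 was 33.8 and 17.1 with Veh and 84.4 and 89.2 with KLA, and p65 was 13.1 and 18.6 with Veh and 48.8 and 78.0 with KLA. In all 4 the KLA libraries lay above both Veh libraries. The log2 fold changes were 1.67 ± 0.43 for NCoR (adjusted p = 0.00988), 1.98 ± 0.45 for HDAC3 (adjusted p = 7.57e-05), 1.76 ± 0.30 for p300 (adjusted p = 9.23e-05) and 1.99 ± 0.43 for p65 (adjusted p = 0.00185). TMM kept the calls of NCoR (1.66), HDAC3 (1.75) and p300 (1.25) and ended that of p65 (0.77). The p300 call held without each library in turn. Calls were lost for NCoR without KLA replicate 1 (1.27, adjusted p = 0.199), for HDAC3 without Veh replicate 1 (2.10, adjusted p = 0.0669) or Veh replicate 2 (1.86, adjusted p = 0.116), and for p65 without KLA replicate 2 (1.61, adjusted p = 0.0916).

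PGC1β had a peak at the Sirt1 intronic site in the DMSO experiment, and none was listed there in the experiment without solvent. In DMSO PGC1β was 18.7 and 27.7 with Veh, 41.4 and 93.8 with KLA and 46.9 and 32.3 with ERKi and KLA. It rose with KLA by 1.58 ± 0.55 (adjusted p = 0.0475), and the difference with ERKi was not called (-0.79 ± 0.54, adjusted p = 0.521). The rise was lost with TMM (1.16) and without DMSO and Veh replicate 1 (1.30, adjusted p = 0.285), DMSO and Veh replicate 2 (1.86, adjusted p = 0.0962), DMSO and KLA replicate 2 (0.86, adjusted p = 0.466) or ERKi replicate 1 (1.58, adjusted p = 0.051). Fosl2, at 38.1 and 44.0 with Veh and 30.3 and 113 with KLA, overlapped between groups.

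With ERKi, NCoR at the Sirt1 intronic site was 19.4 and 14.7, within the range of the Veh libraries, and fell from KLA by -1.73 ± 0.46 (adjusted p = 0.00714). That call was lost with TMM (-0.57) and without KLA replicate 1 (-1.32, adjusted p = 0.151). In the day 0 and day 4 libraries p300 at this site rose from 10.5 and 6.39 to 32.3 and 22.7 (1.60 ± 0.66, adjusted p = 0.0486). That call was lost without day 4 replicate 1 (1.38, adjusted p = 0.608) or replicate 2 (1.87, adjusted p = 0.399), and TMM turned its sign (-0.02).

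H3K27ac around the Sirt1 intronic site moved the other way with KLA. In PGC1b flox/flox cells it was 149.8 and 150.3 with Veh and 90.6 and 79.4 with KLA, and with LysMCre it was 147 and 136 with Veh and 62.1 and 71.6 with KLA. In wild-type cells it was 99.7 and 79.4 with DMSO and Veh, 55.7 and 48.8 with DMSO and KLA, and 125 and 107 with RGFP966 and KLA. The KLA libraries were below the Veh libraries in all 3 settings, with log2 fold changes of -0.82 ± 0.16 (adjusted p = 1.51e-06), -1.08 ± 0.17 (adjusted p = 1.52e-09) and -0.77 ± 0.25 (adjusted p = 0.00551). The medians over all regions were also below 0, at -0.45, -0.62 and -0.42 in the same order. Only the change in PGC1b flox/flox LysMCre cells passed the 2-fold limit. It was -0.46 with TMM, not called, and -0.98 without LysMCre and KLA replicate 1 (adjusted p = 8.83e-06), and the difference of the responses between the genotypes was -0.26 ± 0.24 (adjusted p = 0.521). RGFP966 raised the mark over DMSO and KLA by 1.14 ± 0.24 (adjusted p = 1.22e-05), a call lost with TMM (0.81) and held without each library in turn.

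**Figure D4:**
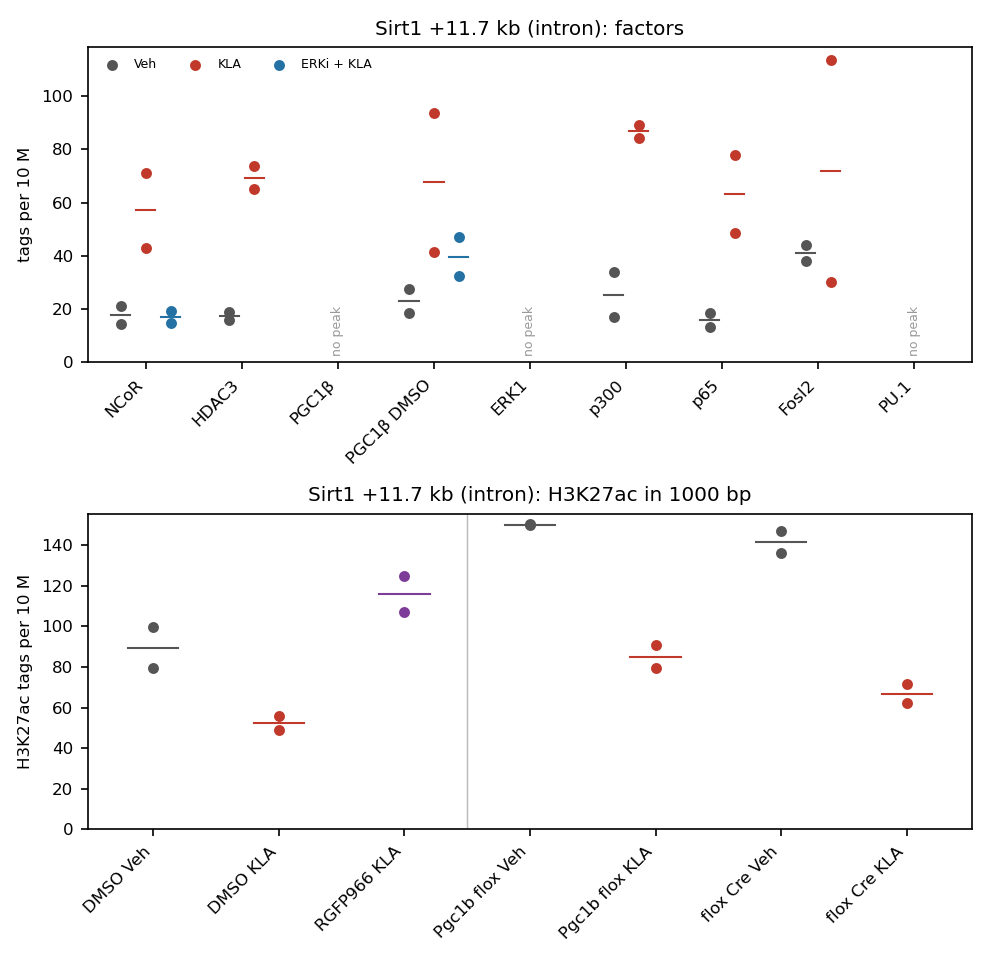
Tags per 10 M (vertical axes, from 0) in every library at the Sirt1 intronic site 11.7 kb past the start, points coloured by treatment, with bars at group means. NCoR, HDAC3, p300 and p65 points with KLA lie above those with Veh, the H3K27ac points with KLA lie below those with Veh, and the RGFP966 points lie above both DMSO groups.

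Other distal sites nearest to Sirt1 also gained binding with KLA. Among these, regions near 0 with Veh may be listed only through their KLA peaks, and their p-values do not account for this. At 38.9 kb (chr10:63299945-63300236), inside an intron of the neighbouring gene Herc4, p300 went from 5.64 and 3.94 to 34.8 and 41.1, HDAC3 from 8.73 and 3.87 to 34.0 and 50.9, and PGC1β from 5.88 and 3.72 to 28.4 and 12.6. All 3 rose, by 2.96 ± 0.47 (adjusted p = 5.24e-05), 2.74 ± 0.61 (adjusted p = 5.24e-05) and 2.04 ± 0.63 (adjusted p = 0.0239), each also called with TMM. The p300 call held without each library in turn, the HDAC3 call was lost without Veh replicate 2 (2.24, adjusted p = 0.0645), and the PGC1β call was lost without Veh replicate 1 (2.39, adjusted p = 0.065), Veh replicate 2 (1.74, adjusted p = 0.19) or KLA replicate 1 (1.405, adjusted p = 0.0789). The sites at 38.9, 7.7 and -8.3 kb were named after their values were seen, except where they held the call of lowest p of a comparison. PGC1β was listed at 38.9 and -8.3 kb only in the experiment without solvent, not in DMSO.

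At 8.3 kb upstream of Sirt1 HDAC3 rose from 0 and 3.87 to 22.3 and 42.1 (3.79 ± 0.79, adjusted p = 1.36e-05), a call that held without each library in turn. PGC1β rose there from 0 and 2.79 to 14.2 and 8.01 (2.76 ± 0.94, adjusted p = 0.0397), lost without Veh replicate 1 (1.93, adjusted p = 0.47) or replicate 2 (7.0, adjusted p = 0.0718). For p65 the rise was from 7.0 and 10.3 to 28.7 and 36.9 (1.92 ± 0.52, adjusted p = 0.00736), lost with TMM (0.70) and without KLA replicate 1 (2.09, adjusted p = 0.0888) or replicate 2 (1.73, adjusted p = 0.179). The p300 peak at 7.7 kb rose from 1.25 and 2.63 to 12.8 and 12.4 (2.67 ± 0.66, adjusted p = 0.00228), lost without KLA replicate 1 (2.64, adjusted p = 0.146) or replicate 2 (2.68, adjusted p = 0.123). A site at 29.9 kb, listed in 3 tables, had PGC1β at 26.8 and 14.6 with DMSO and Veh and 47.4 and 22.3 with DMSO and KLA, which overlapped.

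At the Sirt1 start, listed in 12 tables, no factor was called with KLA. NCoR there was 71.7 and 77.7 with Veh and 82.6 and 60.9 with KLA, and HDAC3 was 95.3 and 77.4 with Veh and 72.1 and 87.8 with KLA, so neither separated. For p300 the levels were 71.5 and 67.0 with Veh and 38.4 and 35.1 with KLA (-0.91 ± 0.26, adjusted p = 0.00531), under the limit with totals and called lower with TMM (-1.43). NCoR with ERKi and KLA was 29.6 and 23.3, below all NCoR libraries without ERKi, and fell by -1.45 ± 0.34 (adjusted p = 0.00363), lost with TMM (-0.28) and without KLA replicate 1 (-1.20, adjusted p = 0.0765). For p65 the levels at the start were 62.2 and 78.3 with Veh and 38.7 and 48.6 with KLA. ERK1 was 53.5 and 56.7 against 40.6 and 23.1, and PGC1β without solvent 28.2 and 38.6 against 16.4 and 22.9. These groups were apart, lower with KLA and not called with totals, while PGC1β in DMSO overlapped. Under TMM 4 p65 member regions were called lower, and whether the Sirt1 start is among them is not given here. The contrast between the start and the intronic site was not tested.

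Across both ERKi experiments, 4 of 12 member regions fell for NCoR, at the Sirt1 start and intron, the Nrf1 upstream site and the Tfam start, beside 49.2% of all NCoR regions. All 12 differences were below 0, with a median of -0.81 against -1.20 over all regions, and under TMM 0 of the 12 were called. The ERKi libraries carry another date in their labels than the NCoR libraries without it. The NCoR libraries without ERKi also name no solvent, where the PGC1β controls name DMSO. Inhibitor, date and any solvent thus cannot be told apart, and the ERKi and Veh comparisons share the KLA libraries. For PGC1β 0 of 17 member regions were called with ERKi, with 1 at an unadjusted p under 0.05 and 0 by DESeq2, beside 0.286% of all regions. On day 4 against day 0, 2 of 5 p300 regions rose (62.5% of all) and 0 under TMM. For ERK1 0 of 1 was called (2.35% of all, 1 at an unadjusted p under 0.05 and 0 by DESeq2), the Nrf1 peak 21 kb upstream at 7.75 and 7.36 on day 0 and 60.7 and 20.3 on day 4 (2.38 ± 0.72, adjusted p = 0.0642). The second ERK1 library of day 4 carries another replicate number and date in its label than the first. Summed p300 at 3 osteoclast markers ran from 25.5 to 336 over these libraries, lower in both day 0 libraries, and its part in these values was not tested.

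H3K27ac at members responded to KLA in few regions. Calls were made for 0 of 7 regions in WT (10.2% of all), 1 of 7 in NKO (10.7%), 0 of 10 in DMSO (34.8%), 1 of 7 in PGC1b flox/flox (30.8%) and 1 of 7 in PGC1b flox/flox LysMCre (36.7%). At an unadjusted p under 0.05 there were 1 in WT and 3 in DMSO, and DESeq2 called 0 and 2. With RGFP966 5 of 10 were called (36.5% of all), 3 higher and 2 lower, against 2 higher and 4 lower under TMM, which added decreases at Esrra and Tfam. The 2 falls with totals, at the starts of Pprc1 and Nrf1, were at starts with over 200 tags per 10 M in each DMSO and KLA library, and the 3 rises lay at the Sirt1 intron, the Ppargc1b upstream site and Ppargc1a, with 55.7 or fewer. Esrra at its start was 280.4 and 279 with DMSO and KLA and 168 and 137 with RGFP966 and KLA, apart and under the 2-fold limit (-0.88 ± 0.20, adjusted p = 6.85e-05).

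Loss of NCoR or of PGC1β changed H3K27ac at no member region by the calling rule. NKO against WT gave 0 of 7 with Veh (1% of all regions) and 0 of 7 with KLA (0.789%), with 0 and 1 at an unadjusted p under 0.05. PGC1b flox/flox LysMCre against PGC1b flox/flox gave 0 of 7 with Veh (0.397%) and 0 of 7 with KLA (7.52%), with 4 and 3 at an unadjusted p under 0.05, and DESeq2 called 0 in all 4 comparisons. The interactions of genotype and KLA gave 0 of 7 for NKO (0.697%) and 0 of 7 for LysMCre (5.37%), with 0 at an unadjusted p under 0.05 and 0 by DESeq2. The NKO difference of lowest p was at the Sirt1 start with KLA, at 41.5 and 20.0 in WT and 72.2 and 46.5 in NKO (0.95 ± 0.31, adjusted p = 0.116).

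In the PGC1b experiment the start of Nrf1 was lower with LysMCre at a size well under 2-fold. It was 619 and 647 in PGC1b flox/flox cells and 479 and 506 with LysMCre under Veh (-0.36 ± 0.07, adjusted p = 7.01e-05), and 592 and 527 against 419 and 404 under KLA (-0.44 ± 0.07, adjusted p = 3.61e-08). Esrra was 271 and 257 against 221 and 189.7 under Veh (-0.36 ± 0.11, adjusted p = 0.0118). The groups were apart at both genes, but all 7 tested member regions were below 0 with Veh, the median over all regions was -0.20, and TMM brought Nrf1 to -0.15 with Veh and -0.05 with KLA. H3K27ac at the Ppargc1b start, the targeted gene, was 39.9 and 42.4 with LysMCre and Veh, near the 51.6 and 49.9 without it (-0.30 ± 0.27, adjusted p = 0.489), and a start window does not report on deleted exons elsewhere in the gene.

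**Figure D5:**
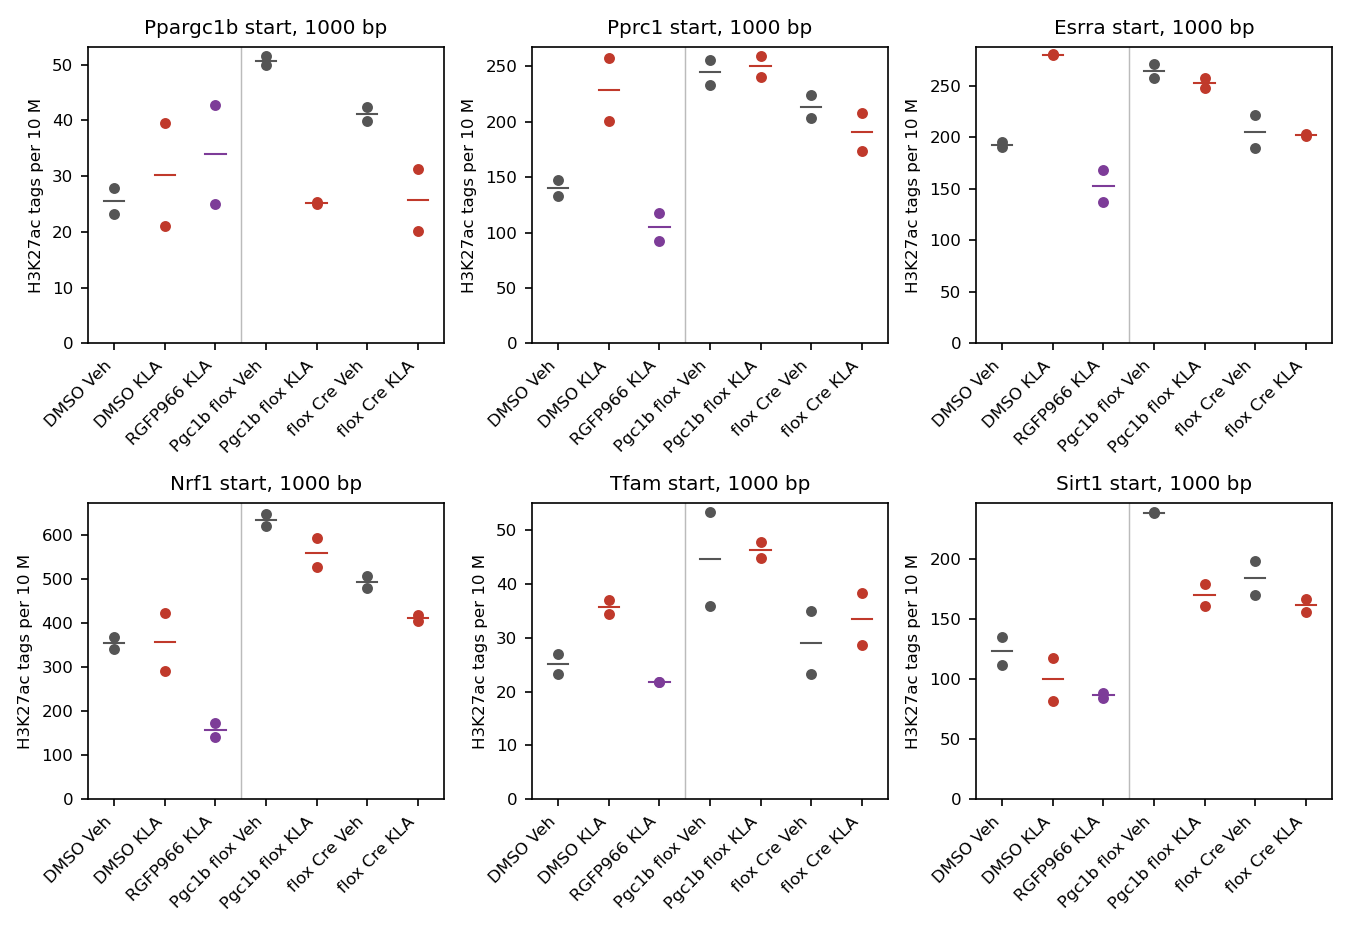
H3K27ac tags per 10 M (vertical axes, from 0) at member starts in the PGC1b and RGFP966 experiments, with 1 point per library and bars at group means. Nrf1, Pprc1 and Esrra are lowest in the RGFP966 libraries, and Nrf1 lies lower with LysMCre than without it, by less than 2-fold.

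Genes that work with the members were described from 4 lists, of which 24 genes had regions tested in the factor tables. With KLA 231 of their 848 regions were called (27.2%), 137 higher and 94 lower, close to the 26.6% of the members and below the 35.2% of all regions. Partners of the respiratory factors had 23 of 121 called, modifiers of PGC1 104 of 333, nuclear receptors that recruit PGC1 93 of 318, and genes of mitochondrial DNA expression and replication 11 of 76. Creb1, an activator of Ppargc1a, had 38 regions higher and 3 lower of 130, and Nrip1, the corepressor RIP140 that opposes PGC1, had 19 higher and 2 lower of 31. The most significant Nrip1 increase was p65 89537 bp past its start (5.26 ± 0.72, adjusted p = 0.00011).

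The 4 receptor genes differed among themselves in direction, and over all regions 109810 were called higher and 42872 lower. Rxra, the common heterodimer partner of nuclear receptors, had 6 regions higher and 26 lower of 63, led by PU.1 48001 bp past its start (-2.74 ± 0.26, adjusted p = 1.25e-18). Ppard had 4 higher and 8 lower of 54, and Pparg, the lipid receptor, 27 higher and 17 lower of 184. Thra, a thyroid hormone receptor, had 4 higher and 1 lower of 17. Fbxw7, part of a ubiquitin ligase that degrades PGC1α, had 9 higher and 18 lower of 97, and Sirt3, the mitochondrial sirtuin, 0 higher and 5 lower of 17. Crtc3, a CREB coactivator, had 4 higher and 3 lower of 31. Gabpb1, the partner subunit of Gabpa, had 6 higher and 3 lower of 34, with PU.1 rising 16731 bp past its start by 4.04 ± 0.22 (adjusted p = 9.81e-37). Yy1 had 6 higher and 5 lower of 55, Hcfc1 1 higher and 2 lower of 28, and Tefm, the mitochondrial transcription elongation factor, 8 higher and 0 lower of 24. Regions of 1 gene and of 1 experiment are not independent, and directions for p65 and p300 depend on the scaling as given above. Those for PU.1 do too. Its median over all regions was -0.41 with totals, with 2296 called higher and 11020 lower, and 0.002 with TMM. Calls of these lists under TMM are not given here.

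The promoter pattern of each member over groups was also set beside those of other genes, after centring each group on its median. In each table it was the region with most tags within 2000 bp of a listed start, so the region can differ between tables. For Ppargc1b it was the upstream site for NCoR and HDAC3, and the start for H3K27ac in the PGC1b and RGFP966 experiments. For Ppargc1b, over 33 groups and 864 genes, the most alike were Spp1 (Pearson's r = 0.91), Dhx8 (0.89) and Cdkn1a (0.88). For Pprc1 over 31 groups they were Oxsr1 (0.78), Trim25 (0.77) and Anapc15 (0.76), for Esrra over 25 groups Acsl4 (0.82), Tpm3 (0.81) and Gm16740 (0.76), and for Tfam over 25 groups they included Nomo1 (0.84) and Gorasp2 (0.78). For Nrf1 over 17 groups they were Tbpl1 (0.98), Zfp869 (0.98) and 2700046G09Rik (0.97), and for Sirt1 over 29 groups 9930021J03Rik (0.72), Mef2c (0.68) and Rmdn1 (0.67). Ppargc1a, with 7 groups, was closest to Atp8a1 (0.99), Serpinb1a (0.99) and Gtf3c6 (0.99), and Gabpa had too few groups. The median r over all genes was between -0.04 and 0.06 for the 7 members. These are descriptions without a test, since groups share experiments and targets and differ in overall height between targets.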

How the data were processed

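Chromatin immunoprecipitation sequencing of mouse macrophages was read from 15 tables of 70 libraries. The authors deposited raw tag counts per region, made with Bowtie2, HOMER and mm10 (versions not given in the sources used here), with at most 3 tags per position, regions merged over the conditions of a table. For H3K27ac with PGC1b deletion or RGFP966 they are 1000 bp windows at open chromatin. The 30 input libraries had no column. Some items are not reported here. The 8 members and all lists were chosen with earlier results of these data known.

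Each table was fitted once with edgeR 4.0.16 (R 4.3.3), quasi-likelihood F-test, library sizes from the header totals, on regions with at least 4 tags (16 for H3K27ac) in 1 library, and p-values were adjusted over all regions tested. Calls needed an adjusted p under 0.05 and a change over 2-fold. The NCoR table with ERKi shares its Veh and KLA libraries with the NCoR table. Fits were tested on simulated data. Named sites were, per gene, the promoter site and the 2 distal sites in most tables, and the member region of lowest p called in each direction. Alternatives were TMM and DESeq2 1.42.0 size factors, the DESeq2 Wald test, other filters, a replicate block, an adjusted p of 0.01, no fold minimum and leaving out each library. Same-numbered libraries did not deviate together (r from -0.027 to 0.026 over 31 pairs of groups), so they were not treated as paired. Sequences come from RefSeq and GRCm38 (mm10). Depth was 4.30 to 21.5 M tags, and few tags at a site limit the precision.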

Additional observations from a re-analysis of the deposited data

How the results depend on the processing

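Of 29 member calls with KLA for factors, 17 held an adjusted p of 0.01, and leaving out single libraries gave 22 to 31. The 4 ERKi calls became 0 with TMM, 0 with DESeq2 size factors, 0 with the DESeq2 Wald test, 2 at 0.01 and 0 to 5 without single libraries. The 2 day 4 calls became 0 with TMM, size factors, the Wald test, the replicate block and 0.01, and 0 to 3 without single libraries. With no fold minimum the 3 H3K27ac calls with KLA became 11 and the 0 genotype calls 6. Without single libraries these were 2 to 4 and 0 to 1, RGFP966 calls 2 to 6, interaction calls 0 to 0 and calls of the pathway lists 202 to 254. The day 4 rise of p300 at the Sirt1 intronic site turned to -0.0199 with TMM. Of 43 called regions, 32 kept the call with the replicate block, although same-numbered libraries share only a number, and 25 kept it with TMM, 1 changing sign. Of 191 member tests without a call, 43 changed sign with TMM. The cause of these losses was not tested. With 2 libraries a group, a lone library left after omission was assumed to vary like the others.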
